A study of Mus musculus with 28 samples.

Results

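The genes of the β-catenin destruction complex were followed in mouse colon organoids before and after deletion of *Apc*. They are *Apc*, *Axin1*, *Gsk3a*, *Gsk3b*, *Csnk1a1*, *Btrc*, *Amer1* and the substrate *Ctnnb1*, chosen by name for their known roles, and all 8 were found among the 13519 genes counted. The data are RNA-seq counts of 28 samples from 7 donor mice on a C57BL/6N background, with 2 cultures per donor that are called duplicates 1 and 2. AC organoids (VillinCreERT2, APCflox/flox) came from 1 donor by the labels, whereas the study's methods describe a pair of donor mice for every genotype. PAC organoids also carried Trp53LSL-R172H/+, BAC organoids BraffloxV600E/+ and BPAC organoids both, with 2 donors each. Each culture was split between ethanol (EtOH, the vehicle) and 3.5 µM 4-hydroxytamoxifen (4-HT), which activates Cre, for 24 hours, with RNA taken after 3 more days. The age of the mice is not given in the sources used here.

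All groups therefore shared the floxed *Apc* alleles and a Cre that the *Villin* promoter drives in intestinal epithelium, and organoids with 4-HT but without these alleles were not analysed here. In AC, 4-HT deletes *Apc* alone. In PAC it also switches on mutant p53 (R172H), and in BAC it also switches on BRAF V600E. The culture medium given in the study's methods held Wnt3a, R-spondin-1 and CHIR99021, an inhibitor of GSK3, which stimulate the pathway. Whether the cultures were kept in it during and after EtOH or 4-HT is not stated for the RNA-seq.

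The destruction complex keeps β-catenin low in cells that receive no WNT signal. AXIN1 and APC are its scaffolds, casein kinase 1α primes β-catenin by phosphorylation, and the GSK3 kinases add further phosphates. β-TrCP, encoded by *Btrc*, then recognises the phosphorylated stretch and directs ubiquitination and degradation. WNT ligands or loss of APC leave β-catenin free to enter the nucleus, where it acts with TCF/LEF factors on target genes. In the colon this pathway maintains stem cells of the crypt, and loss of APC is a common first step of colorectal cancer.

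The stretch of *Ctnnb1* that these enzymes act on is shown because it links 4 of the 8 proteins. It covers codons 32 to 45 in exon 3 of the transcript Ctnnb1-201 (GRCm38, plus strand, chr9:120950602-120950643), and capitals mark codons 33, 37, 41 and 45. Codon 45 is the priming site of casein kinase 1α, and the other marked codons are GSK3 sites.

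Ctnnb1 codons 32 to 45: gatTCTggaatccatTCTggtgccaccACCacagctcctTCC

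The promoters of both GSK3 genes are shown because *Gsk3b* fell with 4-HT while *Gsk3a* did not pass the test, and the ratio of their reads changed. They come from RefSeq (GRCm38.p6), run from 250 bases before to 50 bases after the start of the gene, and read along the strand of the gene. Capitals mark a match to the TCF/LEF motif, searched on both strands as CTTTGAT or CTTTGAA, forms that do not overlap each other. *Gsk3a* lies on the minus strand (chr7:25237802-25238101) and *Gsk3b* on the plus strand (chr16:38088751-38089050).

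Gsk3a promoter: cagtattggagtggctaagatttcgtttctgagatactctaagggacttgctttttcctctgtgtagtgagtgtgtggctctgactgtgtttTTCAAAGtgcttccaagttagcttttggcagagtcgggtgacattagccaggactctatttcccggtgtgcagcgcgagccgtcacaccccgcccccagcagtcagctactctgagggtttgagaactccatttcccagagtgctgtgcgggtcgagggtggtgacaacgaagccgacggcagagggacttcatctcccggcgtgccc

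Gsk3b promoter: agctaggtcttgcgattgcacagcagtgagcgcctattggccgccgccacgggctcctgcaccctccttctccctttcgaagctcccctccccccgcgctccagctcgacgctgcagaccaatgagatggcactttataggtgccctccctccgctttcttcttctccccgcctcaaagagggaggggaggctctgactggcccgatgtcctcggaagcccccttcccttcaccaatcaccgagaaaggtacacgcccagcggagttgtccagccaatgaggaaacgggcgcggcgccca

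The *Gsk3a* window holds 1 match, on the opposite strand, and that of *Gsk3b* holds none. Of all 32851 promoters in the RefSeq table, 8.65% held a match. The *Gsk3a* window had 14 CpG dinucleotides and a GC content of 54.3%, and the *Gsk3b* window had 21 and 63.0%, against medians of 7 and 52.7% over all promoters. *Ctnnb1*, also in the table, had no match in either of its windows. No promoter was listed there for *Apc*, *Axin1*, *Csnk1a1*, *Btrc* and *Amer1*, so these were not searched.

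Between 20577276 and 40068718 reads per library were counted on genes. Levels are given as CPM, counts scaled to a common library total after TMM scaling, with factors of 0.885 to 0.970 in EtOH and 1.04 to 1.1 in 4-HT libraries. The markers fixed for colon epithelium were all counted, and their summed level was 26800 to 38700 CPM with EtOH and 16400 to 23500 CPM with 4-HT. This sum mostly follows its most abundant genes, *Car1* (mean 14100 CPM with EtOH and 5030 CPM with 4-HT) and *Krt8* (8420 and 6900 CPM). Of these 10 markers, 6 fell with 4-HT in the mean over the genotypes and 1 rose, beside 30.6% and 28.8% of all genes. With library size alone 4 fell, beside 19.7%, and with the culture as a replicate block 7 fell, beside 33.8%. *Krt20*, a marker of mature surface cells, had a log2 fold change of -1.88, and *Krt18*, a simple epithelial keratin, was the one that rose, by 0.43. Of 13 markers of other cell types, 3 were among the genes counted, with a summed level of 4.89 to 16.8 CPM with EtOH and 0.88 to 5.51 CPM with 4-HT. The other 10 were not analysed here. The part of these shifts in the changes below was not tested, and in bulk RNA fewer cells of a type and less RNA per cell cannot be told apart.

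A pair of libraries went against their labels. The 4-HT libraries of duplicate 1 from PAC donors 1 and 2 held both *Xist* (834 and 636 counts) and the Y-linked *Ddx3y* (456 and 374 counts). In the matching EtOH libraries donor 1 had 7 *Xist* and 1002 *Ddx3y* counts, and donor 2 had 1495 and 0. These libraries were also the closest pair within any group, with a mean chi-square of 2.36 per gene against 8.38 for the next pair, although still above the value of 1 that sampling alone gives. The PAC values of members printed below are therefore given with and without both cultures, and without them 0.355% of all genes were called in PAC, or 6.73% with the replicate block.

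Per length of exon, *Ctnnb1* was the most abundant member. Its EtOH level ran from 120 to 191 CPM per kb (median 157), far above *Csnk1a1* at 39.0 to 49.7 (median 45.2). *Gsk3a* (18.8 to 32.3 CPM per kb) and *Axin1* (18.1 to 31.2 CPM per kb) followed and overlapped almost throughout. *Gsk3b* stood lower at 9.30 to 11.8 CPM per kb and did not overlap them. *Apc* came next with 1.73 to 3.09 CPM per kb, *Amer1* with 0.954 to 1.95 and *Btrc* with 0.671 to 1.17, and each of these neighbours overlapped the next. With 4-HT, *Axin1* (median 30.6 CPM per kb) stood before *Gsk3a* (median 26.0 CPM per kb), but their ranges still overlapped. *Apc*, at 3.19 to 4.58 CPM per kb, no longer overlapped *Amer1*, at 1.1 to 2.28. These lengths are of all annotated exons of a gene together, so long untranslated parts that are little used lower the level of a gene.

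**Figure D1:**
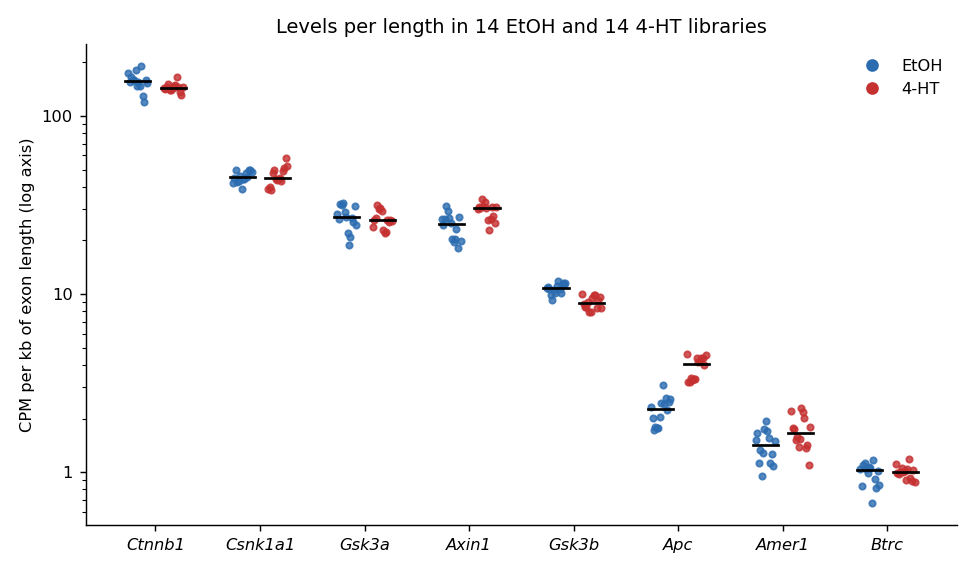
Levels of the 8 genes in CPM per kb of exon length on a log axis, with a point for each of 14 EtOH (blue) and 14 4-HT (red) libraries and a bar at the median. *Ctnnb1* lies above 100 in every library, the scaffolds *Apc* and *Amer1* and the ligase gene *Btrc* lie below 5, and the blue and red points of *Apc* do not overlap.

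The clearest change with 4-HT was a rise of the *Apc* transcript itself. *Apc* (ENSMUSG00000005871, chromosome 18 of GRCm38, 34220924 to 34322552, plus strand) rose in all 14 cultures, by 0.42 to 0.99 on the log2 scale, and a rise in every culture was seen for 18.5% of all genes. Averaged over the genotypes, *Axin1* rose by 21.1% of its level and *Amer1* by 20.9%, and *Gsk3b* fell by 16.1%. These sizes depend on the scaling, and with library size alone the log2 changes of *Axin1* and *Amer1* were both 0.48 instead of 0.28 and 0.27. *Gsk3a*, *Csnk1a1*, *Ctnnb1* and *Btrc* did not pass the test. The test was the quasi-likelihood test of edgeR over all 8 groups, with Benjamini-Hochberg adjustment over all genes and a threshold of 0.01 on the adjusted p.

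In AC, *Apc* went from 37.4 to 73.8 CPM in duplicate 1 and from 39.1 to 70.7 CPM in duplicate 2. Both 4-HT libraries were above both EtOH libraries. The log2 fold change was 0.92 (standard error 0.24, adjusted p = 0.00979), and *Apc* was the only member called in AC, where 7.25% of all genes were called, 3.00% upward and 4.25% downward. The adjusted p lay close to the threshold, and it was over it with DESeq2's size factors and when any of 8 of the 14 cultures was left out (at most 0.208). With the culture as a replicate block, which called 16.4% of all genes, it was 4.96e-05.

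In PAC, *Apc* went from 32.3 to 51.5 and from 27.9 to 51.4 CPM in duplicate 1 of donors 1 and 2, and from 49.7 to 66.6 and from 39.1 to 68.0 CPM in duplicate 2. The lowest 4-HT library was above the highest EtOH library. The log2 fold change was 0.67 (standard error 0.17, adjusted p = 0.00297), the only call among the members, against 23.4% of all genes (11.2% that rose and 12.2% that fell). Without the doubtful cultures it was 0.60 (adjusted p = 0.0842, and 0.00237 with the replicate block). The call was also lost when PAC was fitted alone (adjusted p = 0.0196) and when PAC replicate 1, 2 or 4 was left out (adjusted p = 0.0143, 0.0169 and 0.0191).

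In BAC organoids *Apc* went from 29.0 to 54.8 and from 28.7 to 53.0 CPM in duplicate 1, and from 42.3 to 70.5 and from 35.7 to 70.9 CPM in duplicate 2. Its rise of 0.88 (standard error 0.17, adjusted p = 0.000111) was the only member call, while 41.9% of all genes were called (20.3% that rose and 21.5% that fell). In BPAC, *Apc* went from 28.5 to 53.7 and from 32.7 to 53.7 CPM in duplicate 1, and from 39.9 to 64.4 and from 41.3 to 73.6 CPM in duplicate 2. It rose by 0.78 (standard error 0.17, adjusted p = 0.000332), in a comparison with 45.0% of all genes called (22.0% that rose and 23.0% that fell). EtOH and 4-HT libraries did not overlap in either genotype. How many of all genes were without overlap inside a genotype, here or in AC and PAC, was not counted.

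Averaged over the 4 genotypes, the *Apc* transcript rose 1.76-fold (log2 fold change 0.81, standard error 0.094, adjusted p = 3.98e-08). All EtOH libraries together spanned 27.9 to 49.7 CPM (median 36.6) and all 4-HT libraries 51.4 to 73.8 CPM (median 65.5). *Apc* was the only member whose treatments did not overlap, as for 12.5% of all genes, and 5.64% had every 4-HT library above every EtOH library. The cultures of duplicate 2 mostly held more *Apc* transcript than those of duplicate 1, with medians of 39.9 and 29.0 CPM with EtOH and of 70.5 and 53.7 CPM with 4-HT. The exception was AC with 4-HT, at 70.7 CPM in duplicate 2 and 73.8 CPM in duplicate 1. Within duplicate 1 the mean log2 change was 0.85 and within duplicate 2 it was 0.76.

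The *Apc* count does not check the deletion. In the annotated transcript Apc-202, which has 16 exons and 12811 bases, the last exon holds 82.3% of the bases, and no other exon is longer than 379 bases. Loss of 1 such exon removes at most 2.35% of the 16116 exonic bases of the gene, so the reads of deleted and intact alleles are counted together. The level of APC protein was not measured in these files.

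**Figure D2:**
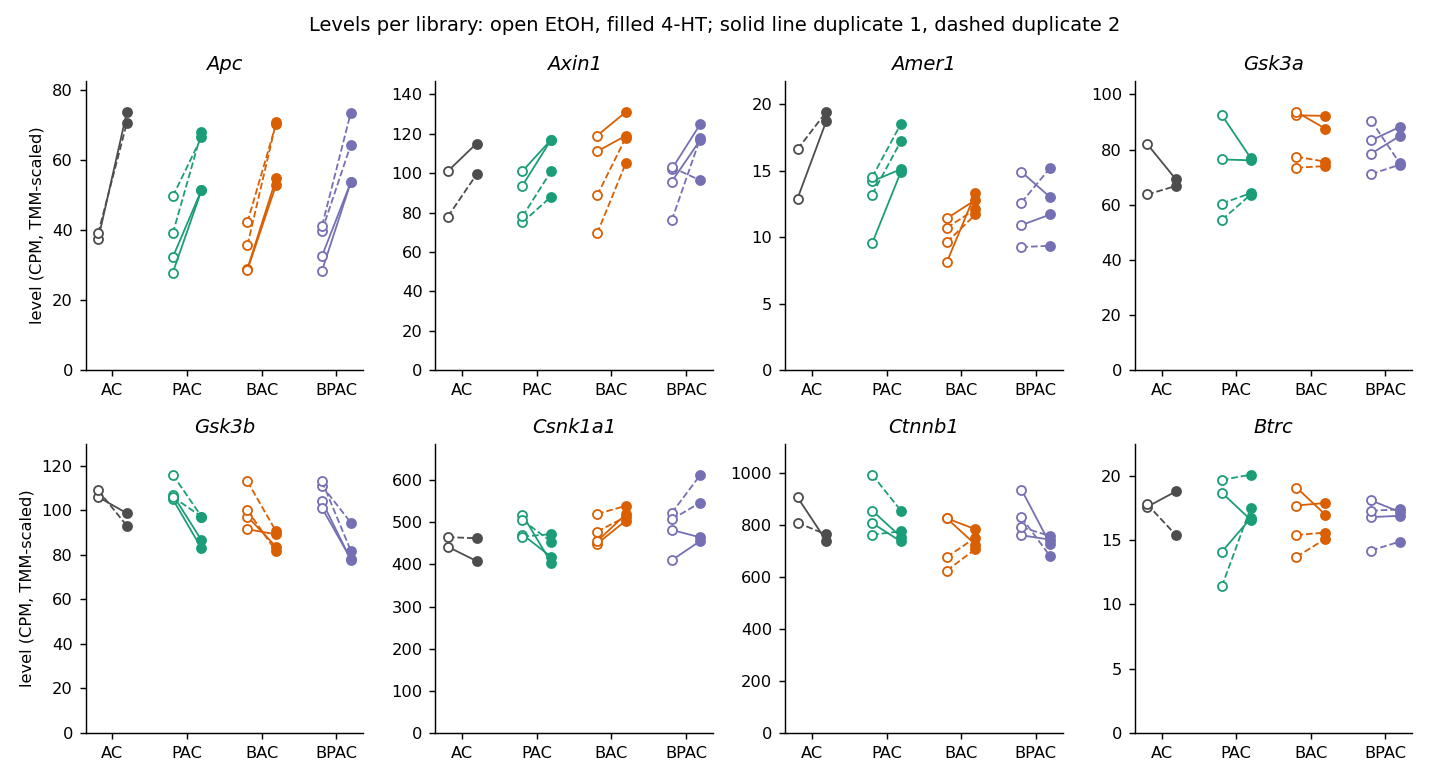
Levels in CPM of the 8 genes in every library, by genotype, with EtOH as open and 4-HT as filled circles, and a solid (duplicate 1) or dashed (duplicate 2) line joining the libraries of 1 culture. Every line of *Apc* rises and every line of *Gsk3b* falls at this scaling, while the lines of *Gsk3a*, *Ctnnb1* and *Btrc* run both ways.

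The other scaffolds moved less. *Axin1* (ENSMUSG00000024182, chromosome 17, 26138688 to 26195811, plus strand), which holds the kinases and β-catenin together and is the scarce component in classical models of the pathway, had 69.4 to 119 CPM (median 94.7) with EtOH and 88.1 to 131 CPM (median 117) with 4-HT. The ranges overlapped, but within a culture the level was higher with 4-HT in 13 of 14, against 26.2% of all genes that were higher in 13 or more. The exception was duplicate 2 of BPAC donor 1, with 103 CPM before and 96.3 CPM after 4-HT.

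In AC *Axin1* had a log2 fold change of 0.26, in PAC one of 0.29, and in BAC and BPAC one of 0.28, and none passed the test (adjusted p = 0.435, 0.126, 0.104 and 0.107 from edgeR). Without the doubtful cultures the PAC value was 0.31 (adjusted p = 0.359). The mean over the genotypes passed, at 0.28 (standard error 0.082, 95% interval 0.11 to 0.45, adjusted p = 0.00435). It did not pass when AC replicate 2 (0.26, adjusted p = 0.0238) or BPAC replicate 4 (0.25, adjusted p = 0.0108) was left out. Like *Apc*, *Axin1* differed between the duplicates, but in the other direction, with EtOH medians of 101 CPM in duplicate 1 and 77.9 CPM in duplicate 2.

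*Amer1* (ENSMUSG00000050332, X chromosome, 95420318 to 95444872, minus strand), which tethers APC at the plasma membrane, had 8.11 to 16.6 CPM (median 12) with EtOH and 9.35 to 19.4 CPM (median 14.1) with 4-HT. It was higher with 4-HT in 13 of 14 cultures, and the exception was duplicate 1 of BPAC donor 2, which started from 14.9 CPM, the highest BPAC level with EtOH, and changed by -0.20 on the log2 scale. Its log2 fold change was 0.37 (AC), 0.35 (PAC), 0.33 (BAC) or 0.047 (BPAC). None of these passed (adjusted p = 0.276, 0.0834, 0.0828 and 0.816), and without the doubtful cultures the PAC value was 0.37 (adjusted p = 0.306).

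The mean over the genotypes was 0.27 (standard error 0.088, adjusted p = 0.00816), and with 10 of the 14 cultures left out in turn its adjusted p was over the threshold, at most 0.0555. Without the doubtful PAC cultures it was 0.28 (adjusted p = 0.0126, and 0.00186 with the block). The call was also lost with genes of at least 10 CPM (adjusted p = 0.0170), with counts summed per donor (0.0331) and with counts thinned to the smallest total (0.0162). Before 4-HT, *Amer1* had a log2 difference of -0.34 between donors with and without the *Braf* allele (95% interval -0.60 to -0.084, adjusted p = 0.176), which did not pass. Among EtOH libraries it ran from 8.11 to 11.4 CPM in BAC and from 12.9 to 16.6 CPM in AC, which has 2 libraries of 1 donor. PAC (9.54 to 14.5 CPM) and BPAC (9.25 to 14.9 CPM) overlapped both.

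Of the GSK3 kinases, *Gsk3b* fell and *Gsk3a* did not pass the test. *Gsk3b* (ENSMUSG00000022812, chromosome 16, 38089001 to 38246084, plus strand) was lower with 4-HT in all 14 cultures, a pattern seen for 19.5% of all genes. In AC it went from 106 to 98.7 and from 109 to 93.1 CPM. In PAC it went from 107 to 86.6, from 105 to 82.9, from 116 to 97.2 and from 106 to 97.2 CPM. In BAC it went from 97.2 to 83.6, from 91.5 to 89.2, from 100 to 81.6 and from 113 to 90.5 CPM. In these 3 genotypes every 4-HT library was below every EtOH library, in BAC by the narrow margin of 90.5 against 91.5 CPM. In BPAC it went from 104 to 77.8, from 101 to 78.2, from 111 to 94.5 and from 113 to 81.9 CPM, again without overlap. Across genotypes the ranges did overlap, since the highest 4-HT library (98.7 CPM) was in AC and the lowest EtOH library in BAC. The share of all genes without overlap inside a genotype was not counted.

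The log2 fold change of *Gsk3b* was -0.37 in BPAC (standard error 0.077, adjusted p = 0.000288), which made 2 of the 8 members called there. When BPAC was fitted alone it was -0.34 and did not pass (adjusted p = 0.0173). It was -0.25 in PAC (adjusted p = 0.0127) and -0.22 in BAC (adjusted p = 0.0186), which missed the threshold and passed it with the replicate block (adjusted p = 0.00405 and 0.00784), a fit that called 34.9% of all genes in PAC and 51.9% in BAC. Without the doubtful cultures the PAC value was -0.19 (adjusted p = 0.300, and 0.174 with the block). The BAC value with the block was then -0.22 and no longer passed (adjusted p = 0.0106). In AC it was -0.17 (adjusted p = 0.314). The mean over the genotypes was -0.25 (standard error 0.043, adjusted p = 1.48e-05).

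This fall depends on the scaling. With library size alone, the median change of all genes over the genotypes was 0.19 instead of -0.02 on the log2 scale, and *Gsk3b* changed by -0.045 (adjusted p = 0.344), below that median but not past the test. In BPAC it then changed by -0.15 (adjusted p = 0.0867), and in AC the sign turned, to 0.053.

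*Gsk3a* (ENSMUSG00000057177, chromosome 7, 25228258 to 25237851, minus strand) had 54.5 to 93.6 CPM (median 78.0) with EtOH and 63.6 to 92.2 CPM (median 75.3) with 4-HT. It was higher in 7 and lower in 7 of the 14 cultures. The mean log2 fold change was -0.037 (95% interval -0.19 to 0.12, adjusted p = 0.670), and with library size alone it was 0.17 (adjusted p = 0.0491). The ratio of *Gsk3a* to *Gsk3b* reads within a library does not depend on the scaling. It had a median of 0.771 with EtOH and 0.893 with 4-HT and rose by 0.25 on the log2 scale (SD 0.15, n = 7 donors), in 11 of 14 cultures and in every donor (two-sided exact sign-flip permutation test, p = 0.0156, the smallest that 7 donors allow, adjusted p = 0.0208 over 4 ratios). Without AC replicate 2 it was 0.21 and did not pass (exact permutation test, adjusted p = 0.0625). This and the other ratios below include both doubtful PAC cultures, and values without both are not given.

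*Csnk1a1* (ENSMUSG00000024576, chromosome 18, 61555274 to 61590061, plus strand), the gene of the priming kinase casein kinase 1α, had positive changes in BAC and BPAC and negative ones in AC and PAC, but none passed, nor did the test of the difference. In AC it went from 442 to 408 and from 465 to 462 CPM. In PAC it went from 471 to 418, from 518 to 404, from 466 to 472 and from 505 to 454 CPM. In BAC it went from 449 to 504, from 455 to 519, from 478 to 513 and from 520 to 539 CPM. All BAC cultures were higher with 4-HT and both AC cultures lower. In BPAC it went from 482 to 464, from 410 to 456, from 522 to 613 and from 507 to 547 CPM.

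For *Csnk1a1* the log2 fold change was -0.060 (AC), -0.17 (PAC), 0.13 (BAC) or 0.11 (BPAC) (adjusted p = 0.808, 0.164, 0.252 and 0.297), and with library size alone the AC and PAC values turned to 0.16 and 0.058. Without the doubtful cultures the PAC value was -0.067 (adjusted p = 0.796). The mean over the genotypes was 0.0037 (adjusted p = 0.955), but with library size alone it was 0.21 and passed (adjusted p = 0.000519), beside a median of 0.19 over all genes. It then also passed in BAC (0.29, adjusted p = 0.00672) and BPAC (0.33, adjusted p = 0.00248). The *Braf* effect, the average change in both genotypes that carry the allele less that in both others, was 0.23 (standard error 0.10, 95% interval 0.022 to 0.44, adjusted p = 0.132, and 0.036 with the replicate block). Without the doubtful PAC cultures it was 0.18 (adjusted p = 0.320). Averaged per donor, the change was 0.12 for the 4 *Braf* donors and -0.13 for the 3 others (exact permutation test, two-sided, p = 0.0286, which no split of the 35 can go below, adjusted p = 0.229 over 8 genes). The difference was 0.33 in duplicate 1 alone and 0.17 in duplicate 2 alone.

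*Ctnnb1* (ENSMUSG00000006932, chromosome 9, 120929216 to 120960507, plus strand) encodes β-catenin itself, whose amount is set mainly through protein degradation. With EtOH its level was 625 to 994 CPM (median 817) and with 4-HT 680 to 856 CPM (median 748), so that the 4-HT range lay inside the EtOH range. It was lower with 4-HT in 11 of 14 cultures, and the 3 exceptions were the duplicate 2 cultures of PAC donor 1 and of both BAC donors. *Ctnnb1* had log2 fold changes of -0.19 in both AC and BPAC, -0.13 in PAC and 0.0076 in BAC, and none passed (adjusted p = 0.367, 0.0926, 0.296 and 0.953). Without the doubtful cultures the PAC value was -0.11 (adjusted p = 0.685). The mean over the genotypes was -0.13 (95% interval -0.24 to -0.016, adjusted p = 0.0401), past 0.05 but not past 0.01, and with library size alone it turned to 0.081 (adjusted p = 0.188).

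Relative to *Apc*, the *Ctnnb1* reads were fewer with 4-HT in every culture. With mean log2 changes of 0.81 for *Apc* and -0.13 for *Ctnnb1*, which was not called, this mostly restates the rise of *Apc*. The test of the ratio is therefore no separate result about *Ctnnb1*. The ratio of *Ctnnb1* to *Apc* reads within a library ran from 15.3 to 32.9 with EtOH (median 23.8) and from 9.98 to 14.7 with 4-HT (median 12.1), without overlap. It changed by -0.92 on the log2 scale (SD 0.19, n = 7 donors), lower in 14 of 14 cultures (exact sign-flip permutation test, p = 0.0156, adjusted p = 0.0208).

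*Btrc* (ENSMUSG00000025217, chromosome 19, 45363734 to 45530013, plus strand) had 11.4 to 19.7 CPM (median 17.4) with EtOH and 14.9 to 20.1 CPM (median 16.9) with 4-HT. Its mean log2 fold change was 0.023 (95% interval -0.14 to 0.18, adjusted p = 0.807). With library size alone it was 0.23 (adjusted p = 0.0135), and without the doubtful cultures 0.053 (adjusted p = 0.605). The largest step was in duplicate 2 of PAC donor 1, from 11.4 to 17.5 CPM. Its paralog *Fbxw11*, which encodes the other β-TrCP protein, had medians of 144 CPM with EtOH and 152 CPM with 4-HT. The ratio of *Fbxw11* to *Btrc* reads had medians of 8.77 and 8.66 and changed by -0.029 on the log2 scale (SD 0.24, n = 7 donors, exact sign-flip permutation test, p = 0.766, adjusted p = 0.766).

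**Figure D3:**
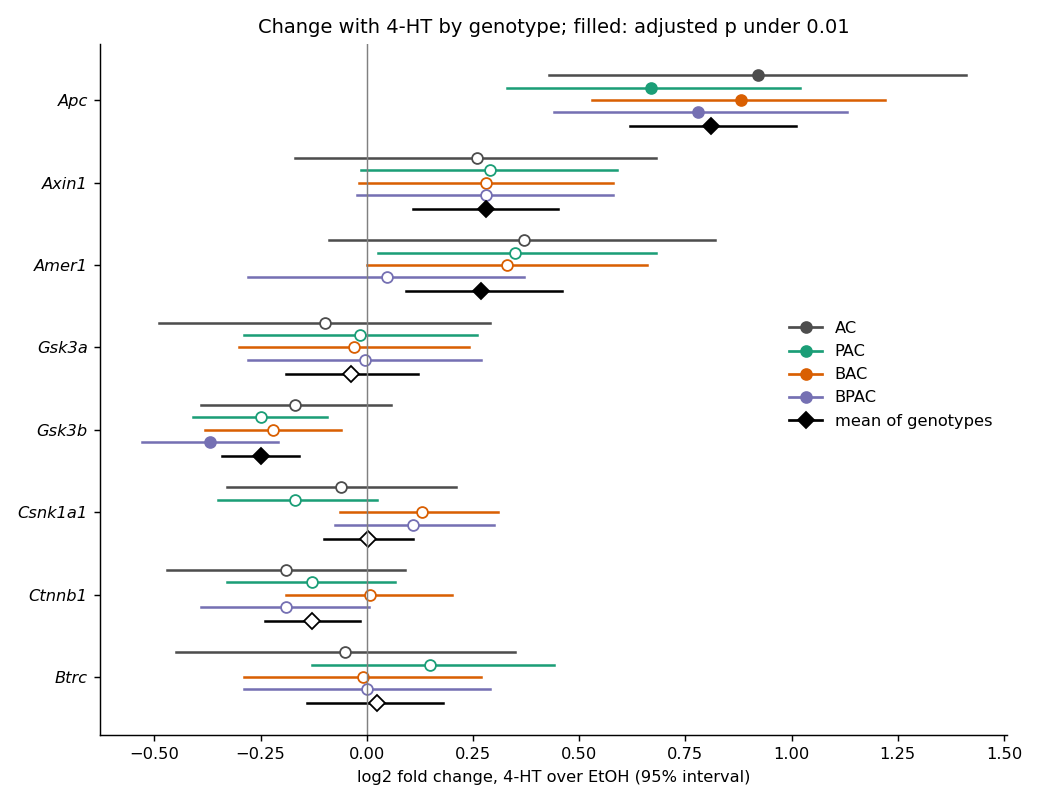
Log2 fold change of 4-HT over EtOH with its 95% interval for each gene in AC, PAC, BAC, BPAC and their mean, at TMM scaling, with filled symbols for an adjusted p under 0.01. *Apc* is filled throughout, *Gsk3b* in BPAC and in the mean, and *Axin1* and *Amer1* in the mean alone. With library size alone the *Gsk3b* symbols would be open. Those of *Csnk1a1* in BAC, BPAC and the mean, of *Axin1* in PAC and BPAC and of *Amer1* in PAC would then be filled as well.

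Counted together, 1 of 8 members rose in each genotype, and 1 also fell in BPAC. In the mean over the genotypes 3 rose and 1 fell, so that 4 of 8 were called, against 59.4% of all genes (28.8% that rose and 30.6% that fell). The share of members called was thus near or below that of all genes, except in AC, where 1 call is all that separates them. The median log2 change of the members was 0.013, beside -0.02 over all genes. With both doubtful PAC cultures left out, 2 rose and 1 fell, against 54.6% of all genes called. With library size alone, *Apc*, *Axin1*, *Amer1* and *Csnk1a1* rose and none fell, against 62.9% of all genes called, with a median of 0.22 beside 0.19 over all genes. At that scaling *Axin1* passed in PAC (0.51, adjusted p = 0.00817) and BPAC (0.49, adjusted p = 0.00718), and *Amer1* in PAC (0.57, adjusted p = 0.00681).

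No member passed the test of the *Braf* effect, for which 6.61% of all genes were called, and 1 of the 8 had an unadjusted p under 0.05, against 28.5% of all genes. None had one with the doubtful cultures left out (28.1% of all genes) or with library size alone (27.6%). DESeq2, which called 10.7% of all genes, and limma-voom, which called 6.58%, called no member. The values ran from -0.17 for *Amer1* to 0.23 for *Csnk1a1*. For the *Trp53* effect, built in the same way from the carriers of that allele, no member passed and none had an unadjusted p under 0.05 (1.04% of all genes had one), while 0.0148% of all genes were called, and the values ran from -0.17 to 0.11. Among EtOH libraries no member passed for the *Braf* allele (0.0296% of all genes were called) or for the *Trp53* allele (0.0592%) by edgeR. DESeq2, which called 0.466% and 0.163% of all genes, and limma-voom, which called 0 and 7 genes, called no member either. Of the 8 members, 1 (*Amer1*) had an unadjusted p under 0.05 for the *Braf* allele, against 17.2% of all genes, and 0 for the *Trp53* allele, against 4.96%. These counts were 2 and 1 with the doubtful cultures left out, against 25.8% and 3.96% of all genes, and *Gsk3a* went from 0.20 (adjusted p = 0.338) to 0.35 (adjusted p = 0.0351) for the *Braf* allele.

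**Figure D4:**
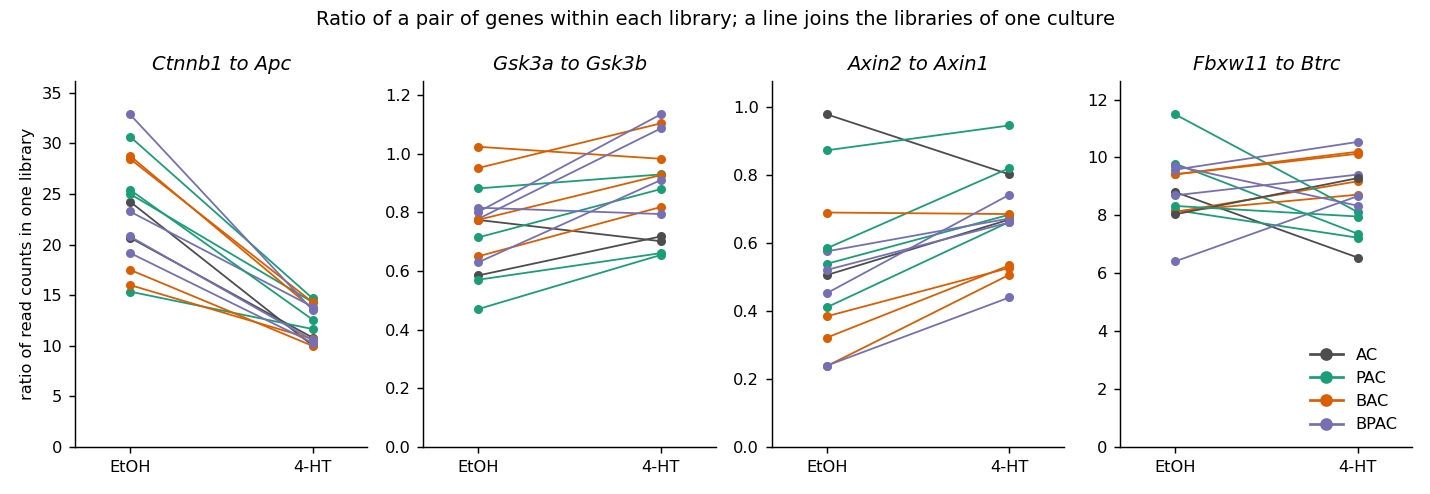
Ratio of the reads of a pair of genes in the same library, with EtOH at the left and 4-HT at the right, for each of 14 cultures coloured by genotype. The *Ctnnb1* to *Apc* ratio falls in every culture, those of *Gsk3a* to *Gsk3b* and *Axin2* to *Axin1* rise in most, and that of *Fbxw11* to *Btrc* runs both ways.

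Of 11 paralogs and ligase subunits counted, 4 rose and 1 fell over the genotypes, beside 28.8% and 30.6% of all genes, with a median log2 change of 0.14. With library size alone 9 rose and none fell, beside 43.2% and 19.7% of all genes. With the replicate block 6 rose and none fell, beside 32.3% and 33.8%. *Axin2*, a second axin that β-catenin itself induces, rose by 0.65 (adjusted p = 6.49e-06), higher in all 14 cultures, with medians of 46.1 CPM with EtOH and 77.2 CPM with 4-HT. The ratio of *Axin2* to *Axin1* reads had medians of 0.513 and 0.671 and rose by 0.44 (SD 0.28, n = 7 donors), in 12 of 14 cultures (exact sign-flip permutation test, p = 0.0156, adjusted p = 0.0208, and 0.0833 without AC replicate 1). The casein kinase gene *Csnk1e* rose by 0.48 (adjusted p = 3.42e-06) and *Amer2*, a relative of *Amer1*, by 0.84 (adjusted p = 0.000497). *Rbx1*, the RING subunit of cullin ligases, rose by 0.24 (adjusted p = 0.000698). *Csnk1g3* fell by 0.12 (adjusted p = 0.00852), which turned to 0.083 with library size alone. That call was also lost with the replicate block (adjusted p = 0.0127) and without the doubtful cultures (-0.097, adjusted p = 0.0581), while *Skp1a*, a ligase subunit, and the casein kinase gene *Csnk1d* passed with the block (0.20 and 0.14, adjusted p = 0.00288 and 0.00427).

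Protein phosphatase 2A acts against the kinases of the complex. Of 10 of its subunit genes, 3 rose and 3 fell, close to the shares of all genes (28.8% and 30.6%), with a median log2 change of -0.08, or 5 and 2 under library size alone. The catalytic subunit genes parted, with *Ppp2ca* at -0.39 (adjusted p = 2.19e-08) and *Ppp2cb* at 0.34 (adjusted p = 0.0015). The scaffold gene *Ppp2r1b* rose by 0.63 (adjusted p = 1.98e-08) and the regulatory subunit gene *Ppp2r5b* changed by -0.60 (adjusted p = 1.42e-08), and these 4 directions held with library size alone. *Ppp2r5e*, at -0.24 (adjusted p = 0.00655), did not pass without the doubtful cultures (adjusted p = 0.0241). *Ppp2r2a*, another regulatory subunit, was 1 of the genes with a *Braf* effect, 0.39 (adjusted p = 0.000376), with log2 fold changes of 0.61 (BAC), 0.47 (BPAC), 0.20 (AC) and 0.11 (PAC).

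Of 10 genes that control the turnover of axin and β-catenin, 3 rose and 1 fell, with a median of -0.021, so that fewer were called than the 59.4% of all genes. The ubiquitin ligase genes *Siah1b* and *Siah2* rose by 0.59 (adjusted p = 4.32e-07) and 0.50 (adjusted p = 0.00171). *Tnks2*, a tankyrase that marks axin for degradation, rose by 0.39 (adjusted p = 2.23e-05). *Smurf2* fell by 0.21 (adjusted p = 0.00798), and by 0.0035 with library size alone (adjusted p = 0.965). *Smurf2* without the doubtful cultures was at -0.16 and did not pass (adjusted p = 0.0642), and *Usp7*, a deubiquitinase, passed (0.26, adjusted p = 0.00613). With the replicate block the deubiquitinase genes *Usp7* (0.22, adjusted p = 0.0061) and *Usp34* (-0.16, adjusted p = 0.00374) also passed.

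Upstream of the complex, 7 of 17 receptor and Dishevelled genes rose and 4 fell, with a median log2 change of 0.12, a share called near the 59.4% of all genes. The Frizzled receptor genes *Fzd9* and *Fzd10* rose by 2.39 and 1.41 and *Fzd5* and *Fzd8* changed by -1.31 and -0.74, in each case also with library size alone. The co-receptor genes parted, with *Lrp5* at 0.47 (adjusted p = 0.000301) and *Lrp6* at -0.48 (adjusted p = 0.00031, and 0.0218 with library size alone). *Dvl1* and *Dvl2*, which recruit axin to activated receptors, rose by 0.40 and 0.49. *Fzd6* rose by 0.46, and *Frat2*, a GSK3-binding protein gene, changed by -0.60. *Fzd1* had a *Braf* effect of 0.85 (adjusted p = 3.38e-05), with log2 fold changes of 1.01 (BAC), 0.98 (BPAC), 0.070 (AC) and 0.23 (PAC).

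Of 8 partners of β-catenin, 2 rose and 3 fell, with a median of -0.10, again near the 59.4% of all genes called. The junction genes *Cdh1*, *Jup* and *Ctnnd1* changed by -0.39, -0.44 and -0.42, of which *Jup* alone passed with library size alone. The nuclear co-activator genes *Bcl9l* and *Pygo2* rose by 0.37 and 0.29. All 10 target genes of the pathway rose, beside 28.8% of all genes, with a median log2 change of 1.85, from 0.65 for *Axin2* to 2.43 for *Sp5*, with *Rnf43*, *Notum*, *Tcf7*, *Lgr5*, *Lef1*, *Tnfrsf19* and *Nkd1* between them, and all 10 rose with library size alone and without the doubtful cultures. All targets but *Axin2* and *Znrf3* (0.76) had a larger log2 change than *Apc*, the member that rose most.

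**Figure D5:**
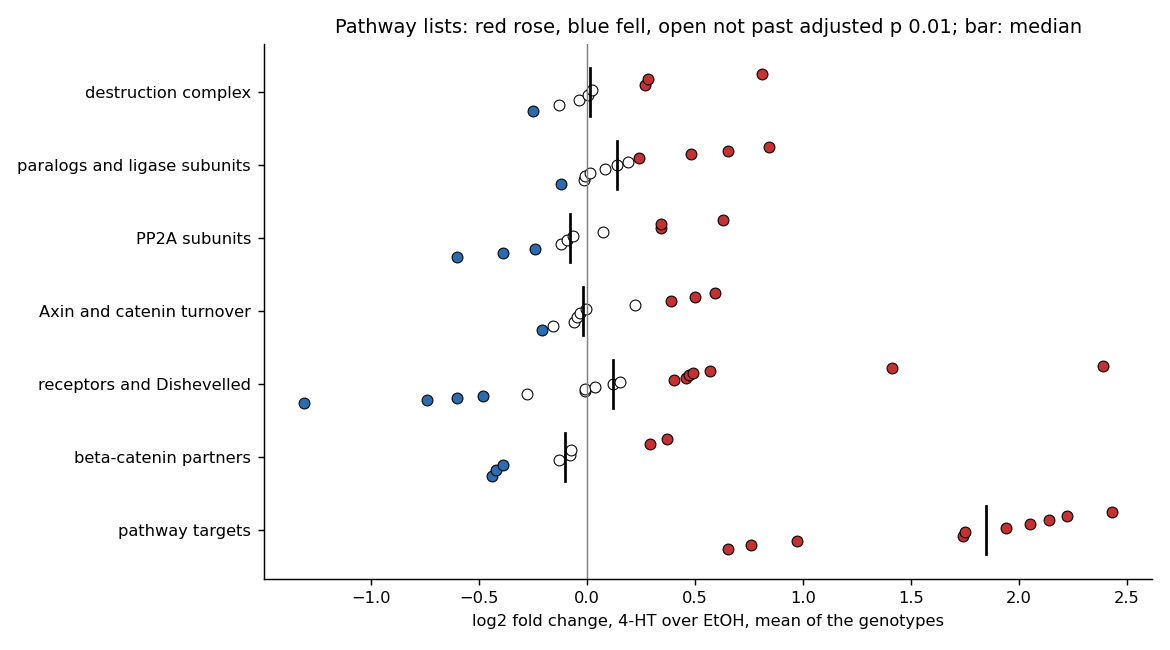
Log2 fold change of 4-HT over EtOH, averaged over the genotypes at TMM scaling, for each gene of 7 lists, with red for genes that rose, blue for genes that fell, open circles for genes that did not pass, and a bar at the median of the list. The destruction complex lies between -0.25 and 0.81, its median near 0, and the target genes between 0.65 and 2.43.

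Across the 28 libraries, the genes whose log2 CPM was most like that of a member were named by Pearson's r, as a description over libraries that share donors, cultures and the 4-HT response. For *Apc* they were *Nsd2*, *Morc2a* and *Smarcad1* (r = 0.944, 0.941 and 0.937). For *Gsk3b* they were *Usp53*, *Atxn1* and *Crebrf* (r = 0.937, 0.937 and 0.934), and for *Gsk3a* they were *Mdh2*, *Dbnl* and *Cope* (r = 0.905, 0.900 and 0.879). For *Axin1* they were *Ddx54*, *Fbxw8* and *Zfp64* (r = 0.943, 0.933 and 0.919), and for *Amer1* *Map4k4*, *Pdzrn3* and *Mex3a* (r = 0.905, 0.855 and 0.854). *Csnk1a1* was most like *Vps35*, *Ap3m1* and *Nabp1* (r = 0.868, 0.861 and 0.858). *Ctnnb1* and *Btrc* had no gene as close, with r of at most 0.800 (*Trp53bp2*) and 0.695 (*Mreg*). No member was among the 3 genes most like another member, and between members r ran from -0.811 for *Axin1* and *Gsk3b* to 0.638 for *Axin1* and *Gsk3a*.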

How the data were processed

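Total RNA of colon organoids was sequenced in 28 libraries. The authors trimmed reads with Trimmomatic 0.39, aligned them with STAR 2.5.2b to GRCm38 per the labels, and deposited raw counts per gene, with no normalization. The counting program, its annotation and its use of strand are not given in the sources used here, so reads of overlapping genes may be shared. The 13519 Ensembl identifiers were matched to GENCODE M21, and 13479 had a symbol. Totals were 20577276 to 40068718, and the counts carry no molecular identifiers.

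TMM scaling and the quasi-likelihood test came from edgeR 4.0.16 (R 4.3.3), fitted to the 8 groups, with the threshold of 0.01 from the study's methods. These name limma, and limma-voom (limma 3.58.1) and DESeq2 1.42.0 were run as alternatives. Changes per culture and ratios used log2 CPM with a prior count of 2, and exact permutation tests (threshold 0.05) used donors as units. Fits were tested on simulated data, and figures were drawn with Python 3.11.15.

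EtOH and 4-HT libraries with the same donor and duplicate number were taken as a culture split between treatments, since the labels give them the same donor and number. The correlation of their deviations from the group means, across genes, was 0.245 to 0.532 over 12 cultures (mean 0.416), over 0.1 in each, so they were treated as pairs. In 11 of 12 the partner was the closest, and the exception was PAC replicate 1, a doubtful culture, with 0.245 for its own partner and 0.260 for another. The main test had no block, and blocked values stand beside the 4-HT calls they change. The study's supplement describes samples as different passages of a line, which the labels do not state for these duplicates, so p values measure the spread between these libraries.

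The members, gene lists and tests were chosen with earlier results of these data known. All 8 members are named, with the 3 genes most like each, and genes of the pathway lists that passed in the mean change or the *Braf* effect could be named. Genes that passed with the block or without the doubtful cultures alone were named after their values were seen. *Apc2*, *Amer3* and *Pygo1* were not matched, and *Skp1* was matched as *Skp1a*. Alternatives were the replicate block, limma-voom, DESeq2, scaling by DESeq2's size factors or by library size alone, genes with at least 10 CPM in 2 samples, counts summed per donor, each genotype alone, the duplicate number as a covariate, thinning to the smallest total, an adjusted p of 0.05, a prior count of 0.5, cultures as units, each duplicate alone and left-out cultures. Leaving out both doubtful PAC cultures together with the block was added after seeing the data.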

Additional observations from a re-analysis of the deposited data

Results flagged for a closer look

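Among 72 sets of 4 libraries or 4 changes of the 8 members, 1 held a value that stood apart by Dixon's test at 95%, fewer than the 1 in 20 that chance gives. The log2 change of *Gsk3a* in BPAC was -0.27 in duplicate 2 of donor 1, where its level went from 90.5 to 75.0 CPM, against 0.067 to 0.11 in the other BPAC cultures. Duplicate 2 of BPAC donor 1 was also the culture in which *Axin1* was lower with 4-HT.

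*Csnk1a1* was lower with 4-HT in both AC cultures and higher in all 4 BAC cultures, with a mean change 0.19 higher on the log2 scale in BAC. The difference between this pair of genotypes was not tested, and the AC change turned positive with library size alone.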

How the results depend on the processing

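*Apc*, *Axin1* and *Amer1* kept their direction over the genotypes under every alternative run, as did *Gsk3b*, whose call was lost with library size alone, where *Csnk1a1* gained one (0.21). The percentages below are the shares of all genes called in the same fit. The count of members called in PAC was 1 (23.4%). It was 2 with the replicate block (34.9%), DESeq2 (27.8%), the duplicate number as a covariate (33.2%) and a threshold of 0.05 (36.7%), 3 with library size alone (30.5%), and 0 with PAC duplicate 1 left out (0.355%) or PAC fitted alone (15.1%). In BAC it was 1 (41.9%), and 2 with the replicate block (51.9%), genes of at least 10 CPM (48.6%), the duplicate number as a covariate (50.8%), library size alone (44.0%) and a threshold of 0.05 (54.8%). In AC it was 1 (7.25%), and 0 with DESeq2's size factors (7.19%). In BPAC it was 2 (45.0%), 1 with BPAC fitted alone (33.4%), where *Gsk3b* lost its call, and 3 with library size alone (47.1%), where *Gsk3b* lost its call and *Axin1* and *Csnk1a1* gained one. The replicate block (the pairing by culture) changed the *Gsk3b* calls in PAC and BAC and no other call of a member. In the *Braf* effect it added calls of *Tnks2*, *Siah1b* and *Siah2* (higher) and of *Frat2*, *Cdh1*, *Bcl9* and *Ctnnbip1* (lower). For that effect the blocked fit called 6.51% of all genes higher and 7.48% lower. The added genes were 3 of 10 turnover genes, 1 of 17 receptor and Dishevelled genes and 3 of 8 partners of β-catenin. None of the 11 paralogs and ligase subunits or of the 10 target genes was called there. With cultures left out in turn, the counts were 0 to 1 in AC (0.0666% to 10.1%), 0 to 2 in PAC (10.5% to 26.5%) and 2 to 4 in the mean (51.6% to 60.2%), with the lowest AC shares without AC replicate 1 (0.0666%) or 2 (0.178%).

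Among the changes given above, signs turned with library size alone for *Gsk3b* in AC (0.053), *Csnk1a1* in AC (0.16) and PAC (0.058), *Ctnnb1* in AC (0.032), PAC (0.092), BPAC (0.025) and the mean (0.081), and *Gsk3a* in the mean (0.17). The changes by genotype of *Gsk3a* and *Btrc*, which are not given above, turned in 4 and 3 genotypes. The sign of *Gsk3a* in the mean also turned without PAC duplicate 1 (0.0048, and 0.0084 with the block). That of *Csnk1a1* in the mean turned with counts summed per donor (-0.0064) and with genes of at least 10 CPM (-0.019), and that of *Ctnnb1* in BAC with the latter (-0.040). With cultures left out, the signs of *Ctnnb1* in BAC (-0.042 to 0.077), *Amer1* in BPAC (-0.039 to 0.15) and, in the mean, *Gsk3a* (-0.074 to 0.0047), *Csnk1a1* (-0.020 to 0.020) and *Btrc* (-0.018 to 0.060) turned. None of these values, which are all of members, had been called. The fall of *Csnk1g3* in the list of paralogs, which had been called, also turned with library size alone, as given above.

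The ratio changes ranged from -0.95 to -0.89 (*Ctnnb1* to *Apc*), 0.21 to 0.28 (*Gsk3a* to *Gsk3b*), 0.39 to 0.49 (*Axin2* to *Axin1*) and -0.076 to 0.018 (*Fbxw11* to *Btrc*) with cultures left out. The second lost its call without AC replicate 2 (adjusted p = 0.0625) and the third without AC replicate 1 (adjusted p = 0.0833), by exact permutation. AC rests on 1 donor, and the causes of these shifts were not tested. No interval for counting error is given, since the spread between libraries is larger.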
